A study of Homo sapiens with 12 samples.

Results

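Histone chaperones are acidic proteins that hold histones away from DNA and hand them over when nucleosomes are built, opened or replaced. Some carry the H3-H4 pair, such as NASP and the CAF-1 complex that follows the replication fork, and others carry H2A-H2B, such as NAP1L1 and the FACT complex that works with polymerases. Dividing cancer cells need a steady supply of them, and SET and ANP32A are also known as inhibitors of the phosphatase PP2A. The 10 genes described here were chosen by symbol from 58302 listed genes: SET, ANP32A and ANP32B, NASP, NAP1L1, the FACT subunits SSRP1 and SUPT16H, the CAF-1 subunit CHAF1A, and the histone-binding proteins RBBP4 and RBBP7. They were proposed with earlier results of these data in view, including the tall ac4C peaks of SET and NASP, so the peak values are a description and carry no test.

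The cells were DLD1, an established human colorectal cancer line, at passage 5. One set carried a hairpin labelled shNAT10, against NAT10, which writes the RNA mark N4-acetylcytidine (ac4C), and the other a control hairpin labelled shNC. Each had 3 input libraries of total RNA, broken to 100 to 200 nt, and 3 libraries of RNA pulled down with an antibody against ac4C, for 12 samples in 4 groups. The labels gave 1 hairpin name for each set and did not say whether replicates were separate cultures. The p-values thus rest on spread between these samples, mostly that of other genes at a similar level, and this spread may be technical.

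Gene levels were deposited for the 6 input libraries as FPKM, which scales fragments by gene length and library total. The library total behind these values was 1197889 to 1498313 fragments in the libraries labelled shNAT10, against 3284599 to 3426872 in shNC, so each zero or low value in the first group rests on less sequence. In bulk RNA, fewer cells that use a gene and less of its RNA per cell cannot be told apart. The targeted gene went against the label in replicates 2 and 3 and not in replicate 1. NAT10 was listed at 0, 28.1 and 31.4 FPKM in the libraries labelled shNAT10, against 1.24, 3.95 and 2.89 FPKM in shNC. Replicate 1 thus lay below all shNC libraries and replicates 2 and 3 lay above them, and every direction given here is that of the label. All 9 epithelial markers were above 0 in at least 1 library. Their summed level was 8108 to 8584 FPKM in the libraries labelled shNAT10, against 5067 to 5384 in shNC. The keratin KRT8 made up most of that sum, with 5643, 5573 and 5866 FPKM in the libraries labelled shNAT10, against 3112, 3774 and 3294 in shNC. EPCAM, an epithelial adhesion molecule, ran the other way, with 38.3, 80.3 and 128 FPKM in the libraries labelled shNAT10, against 226, 370 and 262 in shNC. The 9 fibroblast and muscle markers, all above 0 somewhere, summed to 28.0 to 69.2 FPKM in the libraries labelled shNAT10, against 6.63 to 14.6 in shNC. Leukocyte markers summed to 0 to 2.29 FPKM in the libraries labelled shNAT10 and to 0 in shNC, with CD3E, CD68 and LYZ at 0 throughout. The 5 endothelial or erythroid markers reached 0.241 FPKM at most, with PECAM1, CDH5, HBA1 and HBB at 0 throughout. The part of these differences in the results below was not tested.

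Taken over the 6 libraries, the 10 genes spanned most of the range of expressed genes. ANP32B and SSRP1 were the most abundant per length, with mean levels of 55.6 and 51.8 FPKM, above 90.3% and 89.8% of the 10517 genes tested. SET followed at 26.9 FPKM, then SUPT16H at 16.1, RBBP4 at 9.76, NAP1L1 at 9.46, NASP at 7.23 and ANP32A at 6.40. CHAF1A at 2.77 FPKM and RBBP7 at 1.59 were the least abundant, and RBBP7 exceeded only 8.32% of tested genes. For all 9 pairs of neighbours in this order, the step between means was smaller than the larger SD of the pair over the 6 libraries.

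That variation is the main feature of the input levels. Of the 10 genes, 6 differed over 10-fold between replicates labelled shNAT10 as FPKM + 1, and 2 did so between shNC replicates, against 44.7% and 45.1% of all tested genes. Values listed at 0 made up 8 of 30 in the libraries labelled shNAT10 and 1 of 30 in shNC, against 43.9% and 32.4% over tested genes. The zeros in the libraries labelled shNAT10 did not fall in 1 library: replicate 1 held 4 of them, replicate 2 held 1 and replicate 3 held 3. Whole fragments could be recovered from the deposited values, and totals ran from 104 for RBBP7 to 4249 for SSRP1 over the 6 libraries. At the mean level of the other hairpin, the libraries with a zero would have held 9.78 fragments (RBBP7 in shNC replicate 1) to 222 fragments (ANP32B in the library labelled shNAT10, replicate 1). A count of 0 allows up to 0.228 to 1.17 FPKM in these libraries, taking 3 fragments as the limit and covering counting error only.

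**Figure D1:**
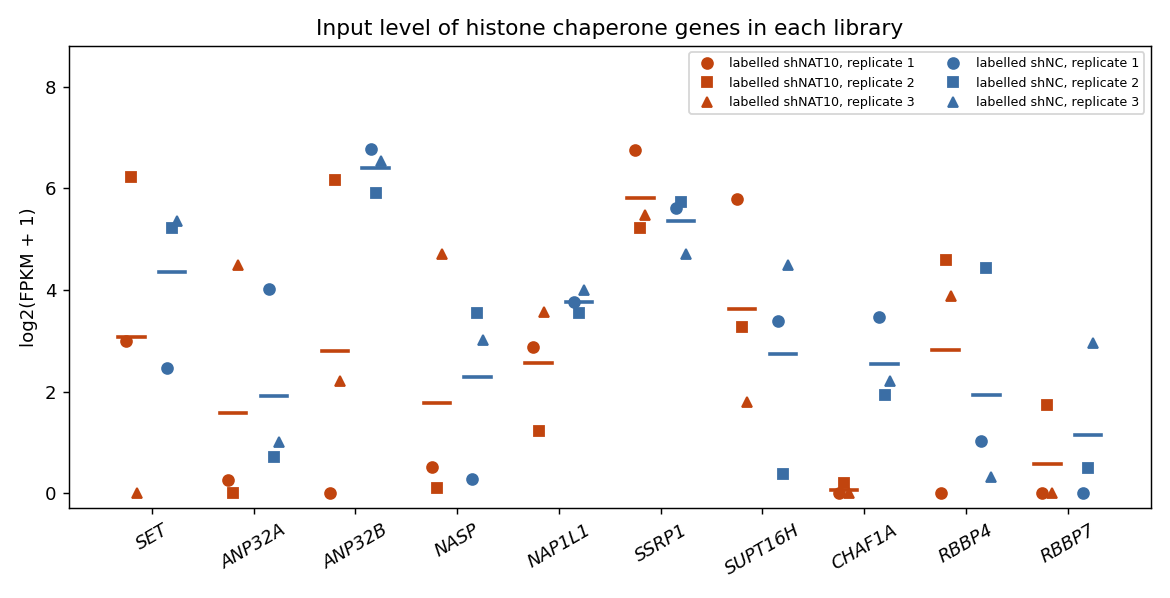
Input level of each gene as log2(FPKM + 1), with libraries labelled shNAT10 left of shNC. Symbols are replicates 1 to 3 and bars are means of the 3 log2 values. CHAF1A is the gene whose groups do not touch, and most others overlap over several log2 units.

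**Figure D2:**
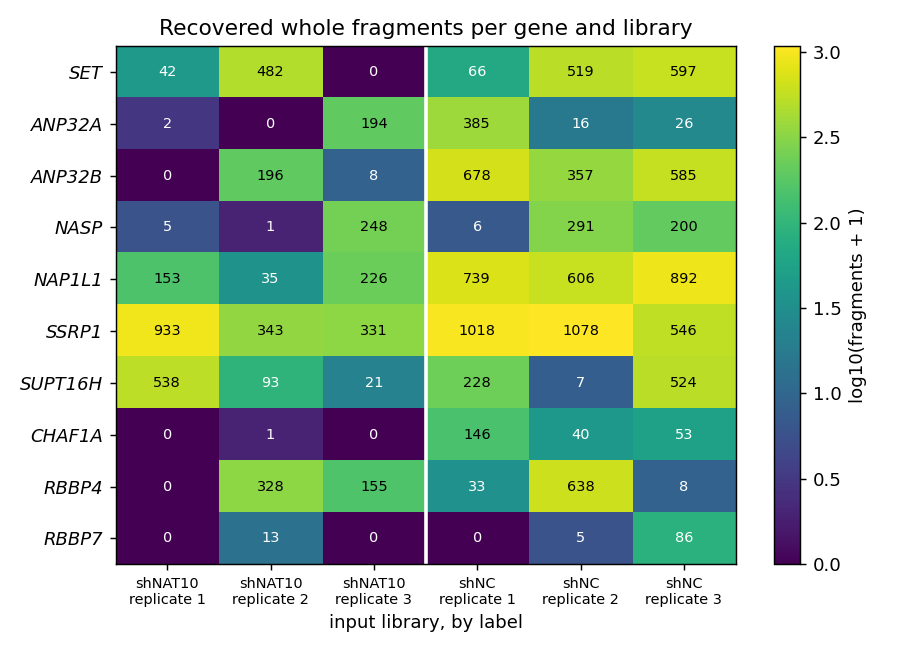
Whole fragments recovered per gene (rows) and input library (columns), coloured by log10(fragments + 1). Neighbouring replicates of 1 hairpin often differ widely, as for SET with 42, 482 and 0 in the libraries labelled shNAT10.

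The first group of genes holds SET and the leucine-rich acidic proteins ANP32A and ANP32B. SET binds H3-H4 and masks histone tails from acetyltransferases. It had 6.94, 73.9 and 0 FPKM in the libraries labelled shNAT10, from 42, 482 and 0 fragments, against 4.48, 36.3 and 40.0 FPKM in shNC, from 66, 519 and 597. Both groups held a low library and a high one, and they overlapped. The difference in mean log2(FPKM + 1), shNAT10 minus shNC, was -1.27 (SE 1.72, 95% interval -4.67 to 2.13, n = 3 per group, limma adjusted p = 0.779). Without the library labelled shNAT10 replicate 3, where SET was listed at 0, the difference was 0.26, so 1 library set its sign.

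ANP32A, which binds histones and PP2A, had 0.191, 0 and 21.5 FPKM in the libraries labelled shNAT10, against 15.1, 0.646 and 1.01 FPKM in shNC. One library of each group carried nearly all of its fragments, 194 of 196 in the libraries labelled shNAT10 and 385 of 427 in shNC. Its difference was -0.33 (SE 1.87), and it turned to 0.33, 0.46 and 0.72 without the library labelled shNAT10 replicate 1, that of replicate 2, or shNC replicate 1. ANP32B, its close relative, had 0, 70.7 and 3.61 FPKM in the libraries labelled shNAT10, against 108, 58.8 and 92.3 FPKM in shNC. The shNC libraries were all high, while those labelled shNAT10 held 2 low values and 1 inside the shNC range. Its difference of -3.62 (SE 1.56, 95% interval -6.69 to -0.54) was the largest in size of the 10 genes with a pseudocount of 1 and all libraries. CHAF1A was larger with a pseudocount of 0.1 or 0.01, and CHAF1A and RBBP4 without the library labelled shNAT10 replicate 1. It was the 1 gene of the 10 with an unadjusted limma p under 0.05, where 3.70% of all tested genes had one. Over all genes it did not pass (limma adjusted p = 0.754). Without the library labelled shNAT10 replicate 1 the difference was -2.22, and without that of replicate 2 it was -5.30, neither past the test.

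Among the carriers of free histones, NASP holds a reserve of soluble H3-H4. It had 0.433, 0.0804 and 24.9 FPKM in the libraries labelled shNAT10, from 5, 1 and 248 fragments, against 0.214, 10.7 and 7.03 FPKM in shNC, from 6, 291 and 200. Its highest and its lowest library both carried the label shNAT10. The difference was -0.50 (SE 1.89, 95% interval -4.22 to 3.22, limma adjusted p = 0.939). It was 0.13, 0.33 and 0.13 without the library labelled shNAT10 replicate 1, that of replicate 2, or shNC replicate 2. NAP1L1, which shuttles H2A-H2B between cytoplasm and nucleus, was the steadiest of the 10 in shNC. Its levels were 6.34, 1.35 and 10.9 FPKM in the libraries labelled shNAT10, against 12.6, 10.6 and 15 FPKM in shNC. Replicate 3 of the first group lay just above the lowest shNC library, so the groups overlapped, and the difference was -1.21 (SE 1.78, limma adjusted p = 0.800). Without the library labelled shNAT10 replicate 2, its lowest, the difference was -0.54.

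The FACT subunits lift H2A-H2B off nucleosomes ahead of polymerases. SSRP1, the smaller subunit, was above 0 in every library. It had 106, 36.2 and 43.7 FPKM in the libraries labelled shNAT10, from 933, 343 and 331 fragments, against 47.6, 51.9 and 25.2 FPKM in shNC, from 1018, 1078 and 546. The groups overlapped, with 1 library labelled shNAT10 above the rest. The difference was 0.47 (SE 1.33, 95% interval -2.15 to 3.09, limma adjusted p = 0.917) and 0.0034 without that library. SUPT16H, the large subunit, had 54.1, 8.68 and 2.45 FPKM in the libraries labelled shNAT10, against 9.42, 0.298 and 21.4 FPKM in shNC. As for SSRP1, the highest library was the one labelled shNAT10 replicate 1, but the other libraries were ordered differently. Its difference of 0.87 (SE 1.79) became -0.22 without that library and -0.32 without shNC replicate 2.

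A processed copy of SUPT16H stood high in the same library. SUPT16HP1 had 64.3, 0 and 0 FPKM in the libraries labelled shNAT10, from at least 280 fragments in replicate 1, against 0, 0 and 4.56 FPKM in shNC. No source used here says how the authors' counting divided reads between near-identical copies, and the SUPT16H levels are uncertain to that extent. Of 36 listed copies of the 10 genes, 4 were above 0 in any library. SETP14, SETSIP and RBBP4P1 were above 0 in 1 shNC library each, at 0.349, 1.93 and 6.44 FPKM.

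CHAF1A, the large subunit of the replication-coupled chaperone CAF-1, was the 1 gene of the 10 whose groups did not overlap. It had 0, 0.155 and 0 FPKM in the libraries labelled shNAT10, against 10.0, 2.83 and 3.6 FPKM in shNC. Behind these values stood 1 fragment in all libraries labelled shNAT10 together, against 239 in shNC. The difference was -2.47 (SE 1.73, 95% interval -5.88 to 0.95), and it did not pass (limma adjusted p = 0.754). Its size depended on the pseudocount, at -5.13 with 0.1 and -7.52 with 0.01, again not past the test. It was -1.55 after quantile normalization and -3.26 on the TPM scale. Non-overlapping groups were found for 9.61% of all tested genes, and in the lower direction for 6.72%, and 1 of 10 is near that background.

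RBBP4 sits in CAF-1 and also in the NuRD and PRC2 complexes, and RBBP7 pairs with the acetyltransferase HAT1. RBBP4 had 0, 23.1 and 13.7 FPKM in the libraries labelled shNAT10, against 1.03, 20.5 and 0.247 FPKM in shNC. The difference was 0.90 (SE 1.88), and it ranged from 0.01 without the library labelled shNAT10 replicate 2 to 2.31 without that of replicate 1. RBBP7 had 0, 2.35 and 0 FPKM in the libraries labelled shNAT10, against 0, 0.412 and 6.79 FPKM in shNC, from 13 fragments against 91. Both genes had libraries near 0 under each hairpin, and the groups overlapped. The RBBP7 difference was -0.57 (SE 1.47, limma adjusted p = 0.906), and without shNC replicate 3 its mean level fell below the filter.

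Over the list, 0 of 10 genes passed the limma test (adjusted p from 0.754 to 0.964), against 0.190% of all tested genes in either direction and 0.105% in the lower one. The limma SE rests on the spread of other genes at a similar level (212.6 prior degrees of freedom) more than on the gene's replicates. The differences were negative for 7 of 10 genes, against 58.8% of all tested genes. Their median was -0.54, and that of all tested genes was -0.49. The intervals were wide, 5.25 to 7.45 log2 units across, and a p that misses the threshold does not show that levels were alike. With replicates 2 and 3 labelled shNAT10 left out, where NAT10 was above shNC, limma again called 0 of 10, and the median was -1.51 against -1.12 for all genes.

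**Figure D3:**
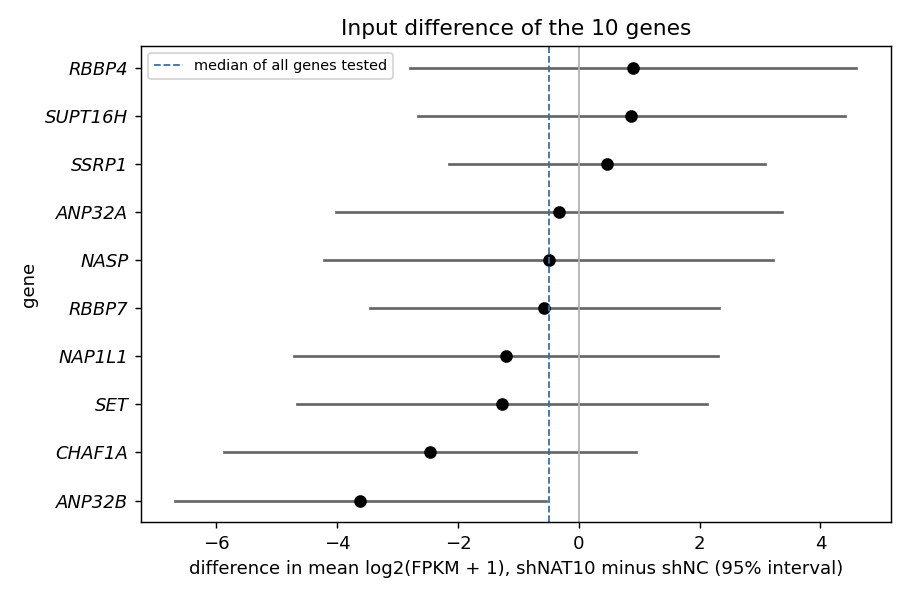
Difference in mean log2(FPKM + 1), shNAT10 minus shNC, for each of the 10 genes (points) with its 95% interval from limma (lines). The dashed line is the median of all tested genes, -0.49, and the interval of ANP32B is the one that lies wholly below 0.

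The 10 genes did not move as a block across libraries. Pearson correlations of log2(FPKM + 1) between pairs of them ran from -0.83 (SET and ANP32A) to 0.72 (ANP32B and CHAF1A), with a median of -0.09 over 45 pairs, each over the same 6 libraries and their scaling. SET was most like SERPINB1, CCT7 and ADNP (r of 0.99, 0.99 and 0.98). CCT7, a subunit of the TRiC chaperonin, had 40.5, 147 and 10.9 FPKM in the libraries labelled shNAT10, against 42.8, 119 and 144 in shNC. For NASP the most similar genes were FANCL, ITPR2 and CYBRD1 (r of 0.99 each), all high in the library labelled shNAT10 replicate 3. These are the highest of 10516 correlations for each gene, over 6 points that share library and scaling, and they carry no test.

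The authors' deposited table of differential ac4C peaks listed 2364 peaks in 1931 genes. It held 1 peak each for SET, NASP, SSRP1 and NAP1L1, and none for the other 6 genes. A peak was listed for 15.4% of all tested genes and 19.0% of the protein-coding ones, but since peaks helped to choose the 10 genes nothing is read from 4 of 10. Which hairpin is the numerator of the deposited log2 change was not stated, nor how replicates were pooled. The highest log10 FDR in the table was -1.3, so it lists peaks below a limit, and a gene without one may still carry signal.

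SET and NASP stood at the top of the table by fold enrichment. In the authors' deposited table the SET peak had a fold of 2650, second of 2364, and a log2 change of 13, the fourth largest in size, at a log10 FDR of -24.4. It lay on the plus strand at chr9:128693950-128694877 (GRCh38) and was classed as 3' UTR. It consisted of a block of 93 nt and one of 237 nt, chr9:128693950-128694042 and chr9:128694641-128694877, parted by 598 nt. The peak ended 1519 nt before the 3' end of the RefSeq gene.

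The NASP peak had a deposited fold of 1740, which shared the fifth rank with 1 other peak, and a log2 change of 10.2 at a log10 FDR of -7.24. It lay on the plus strand at chr1:45617506-45618155, was classed as exon, and ended 738 nt before the 3' end of the gene. Of the gene's genomic length, 96.0% lay 5' of the peak. Its blocks held 86 and 95 nt. The deposited log10 p of the peak itself was -628 for SET and -411 for NASP, ranks 37 and 64 of the table, so they ranked higher by fold than by p. Neither peak had a site of the CXX repeat that the authors searched (CXX 4 times in a row), and 62.6% of listed peaks had at least 1. The median deposited fold was 10.5 over all peaks and 15.8 over 3' UTR peaks. Of 13 peaks with a deposited fold of at least 1000, 9 had a positive change, against 38.3% of the whole table.

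The other pair of peaks was low and of opposite sign. SSRP1 had a deposited fold of 3.26, above 15.1% of listed peaks, and a log2 change of -6.48 at a log10 FDR of -26.7. It lay on the minus strand at chr11:57327724-57328318 and was classed as exon, with blocks of 159 and 22 nt. NAP1L1 had a deposited fold of 2.52, above 8.29% of peaks, and a change of -3.41 at a log10 FDR of -2.15. It lay in coding sequence on the minus strand at chr12:76053323-76053892, in blocks of 28 and 123 nt, and 64.0% of the gene's genomic length lay 5' of it, against 76.5% for SSRP1 and 81.1% for SET.

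**Figure D4:**
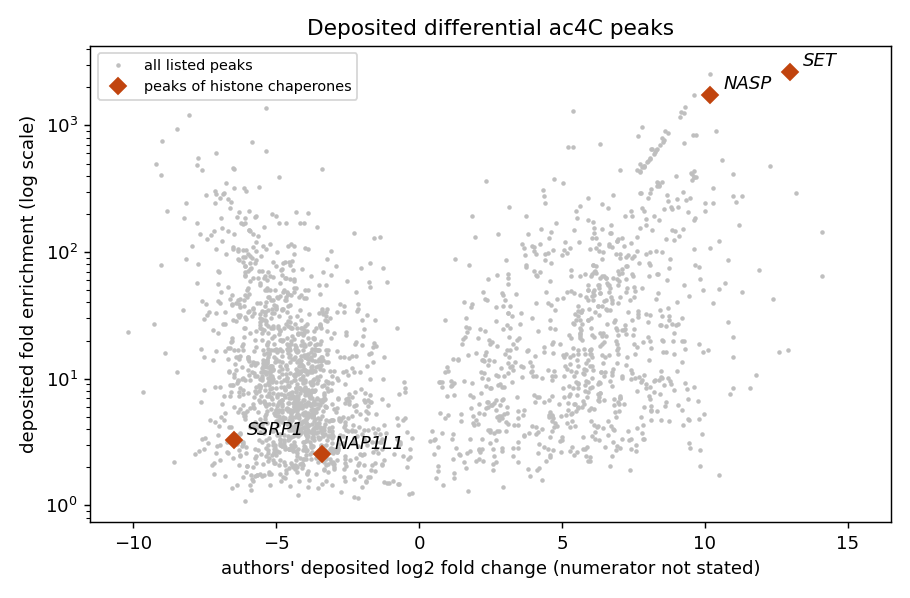
Deposited fold enrichment (log scale) against deposited log2 fold change for every listed peak (grey) and for the 4 peaks in histone chaperones (diamonds). SET and NASP lie at the upper right, with folds of 2650 and 1740, and SSRP1 and NAP1L1 at the lower left, with 3.26 and 2.52.

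All 4 peaks crossed a gap between blocks, as did 50.6% of listed peaks. The gaps were 598 nt in SET, 469 in NASP, 414 in SSRP1 and 419 in NAP1L1, while the blocks of each peak covered 330, 181, 181 and 151 nt. The 1 motif site listed among them belonged to SSRP1 at chr11:57328184, and it fell in the gap. In rising coordinates it lay 302 nt beyond the end of the 159-nt block and 113 nt before the 22-nt block. SSRP1 is on the minus strand, so the 22-nt block is the 5' one. Across the table, 491 of 1548 sites in peaks of several blocks (31.7%) lay outside every block. Of the span of these peaks, 95.6% lay outside the blocks, so listed sites were concentrated in blocks. In peaks of 1 block, 1572 of 1581 sites lay inside it. By the positions as listed, a count of sites over such a peak can include sequence that its blocks do not cover. Whether the listed positions allow for the gaps was not tested.

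**Figure D5:**
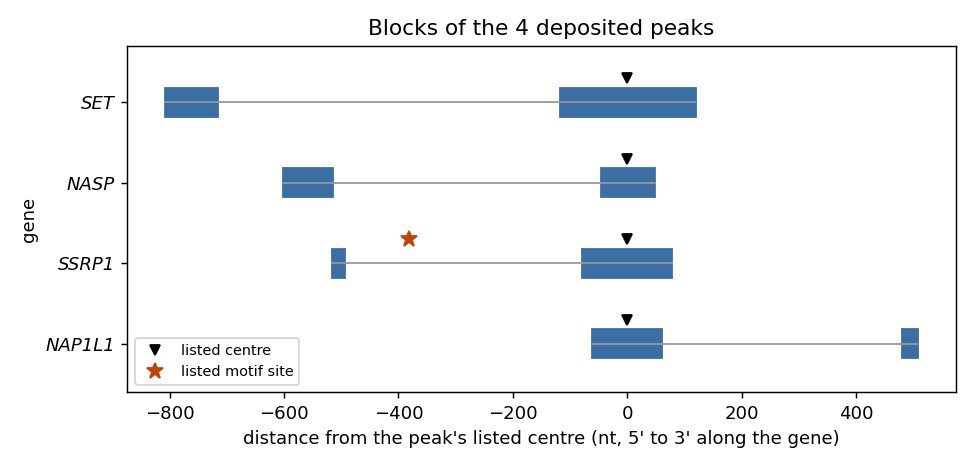
Blocks (bars) and gaps (lines) of the 4 deposited peaks, drawn 5' to 3' along each gene as distance in nt from the listed centre (triangle). The star marks the motif site listed for SSRP1, which lies between its blocks.

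Peak height and input level were ordered differently among the 4 genes. The libraries behind the deposited fold were not stated, and whether the fold itself depends on input level was not tested. SSRP1, with 25.2 to 106 FPKM over the 6 input libraries, had a deposited fold of 3.26, while NASP, with 0.0804 to 24.9 FPKM, had 1740. For SET, the deposited change of 13 stood beside an input difference of -1.27 (SE 1.72) that did not pass the test. The pull-down libraries themselves had no gene levels among the values analysed here.

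Of 28 other histone chaperones and deposition factors, 24 were abundant enough to test. By limma 0 rose and 0 fell, against 0.190% of all tested genes called in either direction. An unadjusted limma p under 0.05 was found for 0 of them, against 3.70%. The median difference of the 24 was -0.71, against -0.49 over all tested genes, with 16 of 24 negative, against 58.8%. NPM1, the abundant nucleolar chaperone nucleophosmin, had 132, 119 and 52.3 FPKM in the libraries labelled shNAT10, against 90.0, 99.7 and 100.0 in shNC, so the groups overlapped. The authors' deposited table held 16 peaks in 12 of these genes, 6 positive and 10 negative, where 61.7% of the whole table was negative. A peak was listed for 19.0% of tested protein-coding genes. Since the lists were chosen with earlier results known, nothing is read from 12 of 28. ATRX, a remodeller that works with DAXX to place H3.3, had the highest peak by deposited fold, 966 in its 3' UTR at chrX:77507186-77507396. Its deposited change was 7.80 at a log10 FDR of -1.42, near the highest listed, -1.3. Another ATRX peak, in coding sequence, had a deposited fold of 39.1 and a change of -6.29 at a log10 FDR of -1.94. CABIN1, a subunit of the HIRA complex, had a deposited fold of 159 in its 3' UTR with a change of -3.56, and one of 14.7 in coding sequence with 5.29.

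Partners of RBBP4 and RBBP7 in the NuRD, SIN3 and PRC2 complexes were next, with 16 of 19 tested. By limma 0 were called in either direction and 0 had an unadjusted p under 0.05, against 0.190% and 3.70% of all tested genes. The median difference was -0.65, against -0.49 over all tested genes. HDAC1, a deacetylase on this list, was higher in each library labelled shNAT10 than in any of shNC. It had 69.4, 42.1 and 54.8 FPKM against 21.6, 6.22 and 1.25, but did not pass (difference 2.95, SE 1.60, limma adjusted p = 0.754). Groups that did not overlap in the higher direction were found for 2.89% of all tested genes. In the authors' deposited table HDAC1 had a peak of fold 10.4 with a change of 7.69, and the remodeller CHD4 one of 27.1 with -6.87. MTA2, another NuRD subunit, had a deposited fold of 9.50 with -5.02.

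For PP2A, the phosphatase that SET and ANP32A bind, 11 of 12 listed subunits and regulators were tested. Limma called 0 and 0 had an unadjusted p under 0.05, against 0.190% and 3.70% of all tested genes. The median difference was -0.20, against -0.49 over all tested genes. PPP2R1A, a scaffold subunit and the most abundant on the list, had 88.2, 1.35 and 3.37 FPKM in the libraries labelled shNAT10, against 6.0, 8.15 and 30.7 in shNC. All 5 deposited peaks in 4 of these genes had a negative change, against 61.7% of the whole table, with folds of 1.89 to 48.2. The highest were in the regulatory subunits PPP2R2A (48.2) and PPP2R5D (15.1) and in the catalytic subunit PPP2CA (10.6). Among 10 variant and replication-independent histones, limma called 0 and 0 had an unadjusted p under 0.05, against the same 0.190% and 3.70%. Their median difference was -0.67, against -0.49 over all tested genes. H2AFX, the variant that is phosphorylated at DNA breaks, had 488, 11.6 and 173 FPKM in the libraries labelled shNAT10, against 20.1, 0.377 and 116 in shNC, with overlapping groups. H3F3A, which encodes H3.3, had a coding-sequence peak of deposited fold 536 and change 10.6, and an exon peak of fold 2.07 and change -2.14. Its peaks, like those of ATRX and CABIN1, thus had opposite signs. The other listed genes with several deposited peaks, HJURP and PPP2R1A, had negative changes throughout. H2AFV and H1F0 had deposited folds of 74.0 and 7.68, with changes of -4.10 and -4.53.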

How the data were processed

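Input RNA and ac4C pull-downs were sequenced as 150 bp pairs. The authors deposited gene levels in FPKM for the 6 input libraries; NC columns matched the shNC titles, and the sh columns were assigned to shNAT10 by elimination. In the authors' deposited peak table, per the file headers, each peak had a fold (ratio), a p-value, and a log2 fold change with its FDR. The submitters' processing notes list HOMER 4.10.4, cutadapt 2.5 and HISAT2 2.1.0 without saying what each did, and human and mouse builds. Peak positions were read as GRCh38, since 98.4% of 2190 peaks lay within their RefSeq gene (GRCh38.p14), and are printed counting from 1. The sources used here name neither the counter nor the peak caller, nor whether replicates were pooled.

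The test was limma's (version 3.58.1, R 4.3.3, lmFit and trended eBayes), on log2(FPKM + 1) of genes whose mean FPKM was at least 1, with Benjamini-Hochberg adjustment over all 10517 genes and a threshold of 0.05. Fragments were recovered from the FPKM denominators that make all 13 mitochondrial mRNAs whole, then the smallest gene length that makes all libraries whole within 1e-06 fragments, so they are minimum numbers. PCR copies were not marked. The procedures were tested on simulated data. Same-numbered libraries did not deviate together (correlations of 0.0012, -0.02 and 0.01), so the replicate number entered only as an alternative. Members and gene lists were chosen with earlier results of these data known. Named were all members, NAT10, of each list the members past the test or else the most abundant, up to 3 per list by deposited peak fold, and the 3 genes most correlated with SET and with NASP. KRT8, EPCAM and the copies above 0 were named after their values were seen, and some items that the rule or the marker lists cover are not reported here.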

Additional observations from a re-analysis of the deposited data

How the results depend on the processing

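Limma called 0 of the 10 genes in each of 16 alternatives (0 to 1 with an unadjusted p under 0.05; lowest adjusted p 0.108), and 13 of 157 recomputed differences changed sign, none of them past the test. RBBP4 was -0.26 with a pseudocount of 0.01 and -1.92 without replicates 2 and 3 labelled shNAT10, a setting added after seeing the data. After quantile normalization NASP was 0.37 and ANP32A 0.26. With single replicates left out, differences ran from -2.85 to 0.26 for SET, -1.96 to 0.33 for NASP, -1.78 to 0.72 for ANP32A and -0.32 to 1.78 for SUPT16H. The median over the 10 genes was -1.36 with a pseudocount of 0.1 and -1.89 with 0.01, against -0.78 and -1.06 for all genes. It was -1.51 without replicates 2 and 3 labelled shNAT10 and -1.18 to -0.25 with single replicates left out. The scalings gave -0.85 (TPM), -0.50 (median ratios) and 0.12 (quantile), against -0.76, -0.45 and -0.08 for all genes. Over all genes limma called 20, but 7 with a pseudocount of 0.01, 10 at a mean FPKM of at least 5, and 0 with no filter on low values (15014 tested, 340 at an unadjusted p under 0.05). It called 1 to 34 with single replicates left out (12 without shNAT10 replicate 1, 34 without shNAT10 replicate 2, and 1 without each shNC replicate) and 0 without replicates 2 and 3 labelled shNAT10 (1139 at an unadjusted p under 0.05). With the replicate block limma called 21 genes and 0 of the 10, and it changed no call on them. The 4 peaks remained at an FDR of at most 0.01, at an absolute change of at least 1 and with overlapping intervals joined. Their deposited values fixed this, since the weakest, NAP1L1, had a log10 FDR of -2.15 and a change of -3.41, and each gene had 1 peak. These settings therefore add no support. The cause of the changes between the limma settings was not tested. RBBP7 and CHAF1A gave no value at a mean of at least 5, nor RBBP7 without shNC replicate 3. They had the fewest fragments of the 10 genes, 104 and 240 in all, and the part of depth in this was not tested. The lone library left without replicates 2 and 3 is assumed to vary like the others.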
